A study of Mus musculus with 12 samples.

Results

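Cpeb4 and Cgref1 are a pair of mouse genes whose hippocampal signal averaged lower 1 hour after kainate than after saline, and each was read by 1 probe set. They make up 2 of the 11868 probe sets of the array (controls not counted), found by their gene symbol in the platform annotation, and both were among the 3541 bright enough to be tested. They were chosen by their averaged kainate difference on these same arrays, from the log2 values given below, so every kainate value below describes the choice and carries no test. The 12 Affymetrix arrays came from mice that had lost CREB and CREM, called mutant in the labels, and from their control littermates. Each array carried hippocampal RNA pooled from 3 animals of both sexes, 5 to 6 weeks old, which had been caged alone and handled for 5 days. There were 3 arrays for each of 4 groups, namely mutant mice given kainate (20 mg/kg, intraperitoneal), mutant mice given saline, control mice given kainate and control mice given saline, all killed 1 hour after the injection. The sources used here do not give the alleles of either genotype, or whether the deletion was limited to certain cells. Whether a lower signal came from fewer cells that express a gene or from less RNA per cell cannot be told apart in such tissue.

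Kainate is an agonist of ionotropic glutamate receptors that drives seizure activity in the hippocampus, and within an hour of it neurons start transcribing a set of early response genes. CREB and CREM are related transcription factors that bind cyclic AMP response elements (CREs) and take part in that response. Cpeb4 encodes a member of the cytoplasmic polyadenylation element binding proteins, which attach to a U-rich element near the end of certain mRNAs, change the length of their poly(A) tails and so control when they are translated. In mouse hippocampus Cpeb4 has been described as inducible by kainate. Cgref1 encodes a secreted protein with EF-hand motifs, the helix-loop-helix fold that binds calcium, and was first described in the rat as a gene that slows cell growth.

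The promoters of both genes are shown, with matches to the motifs named below in capitals. The sequences are the RefSeq windows of build GRCm38.p6, from 250 bases before to 50 after an annotated start. That of Cpeb4 is chr11:31870690-31870989 on the plus strand, and the gene spans bases 31870104 to 31935635 of chromosome 11. Cpeb4 thus begins upstream of its window, which lies at a start inside the gene and does not cover the upstream end. The Cgref1 window is chr5:30945431-30945730 on the minus strand, and the gene spans bases 30933143 to 30945480 of chromosome 5. A second annotated start of Cgref1 lies 53 bases further downstream.

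Cpeb4: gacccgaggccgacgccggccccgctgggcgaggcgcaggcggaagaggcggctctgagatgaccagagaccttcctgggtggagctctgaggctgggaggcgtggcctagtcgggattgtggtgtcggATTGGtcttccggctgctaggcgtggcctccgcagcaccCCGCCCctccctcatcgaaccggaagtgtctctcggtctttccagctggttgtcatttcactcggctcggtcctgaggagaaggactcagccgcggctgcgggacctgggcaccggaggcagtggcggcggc

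Cgref1: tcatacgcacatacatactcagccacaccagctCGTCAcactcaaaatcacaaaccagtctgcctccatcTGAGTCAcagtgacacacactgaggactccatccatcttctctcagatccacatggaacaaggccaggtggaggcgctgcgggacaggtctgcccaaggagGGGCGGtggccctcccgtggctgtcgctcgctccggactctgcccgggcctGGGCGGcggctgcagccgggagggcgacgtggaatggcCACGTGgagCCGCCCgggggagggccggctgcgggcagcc

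Capitals mark matches on either strand to the full CRE (TGACGTCA), the CRE core (TGACG, which the full CRE contains), the AP-1 motif (TGANTCA), the E-box (CACGTG), the Egr motif (GCGTGGGCG), the GC box (GGGCGG) and the CCAAT box. The Cpeb4 window matched a GC box, whose first base is at -82 from the start, and a CCAAT box at -121, and none of the other motifs. The Cgref1 window matched a CRE core at -217, an AP-1 motif at -180, an E-box at 11 and GC boxes at -79, -28 and 20. The window at the second Cgref1 start held the same AP-1 motif, E-box and GC boxes and no CRE core. Over 32817 promoter windows of this length a CRE core was present in 20.8%, a full CRE in 1.8%, an AP-1 motif in 7.8%, an E-box in 7.1%, an Egr motif in 0.6%, a GC box in 35.6% and a CCAAT box in 37.4%. The GC content was 68.3% for Cpeb4 and 65.3% for Cgref1, against a mean of 53.8% over all windows. These matches describe letters in a window and say nothing of binding.

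Some arrays stood apart from the rest. Replicate 1 arrays of all groups correlated with each other at 0.987 to 0.992 over the tested probe sets, and with replicates 2 and 3 of their own group at 0.818 to 0.968, so replicate 1 is treated as a batch seen in the data. Mutant kainate replicate 3 had a narrow spread of values (SD 1.51, against 1.68 to 1.79 on the others). Control kainate replicate 3 scored 0.889 on 50 probe sets that parted the genotypes on the saline arrays. Control kainate replicates 1 and 2 scored -0.0115 and 0.271. On this scale 0 is the control and 1 the mutant saline mean, so saline arrays lie near these values by construction. The astrocyte gene Gfap, on the kainate arrays, read 12.82, 13.03 and 11.55 in mutant replicates 1, 2 and 3 and 11.51, 11.53 and 12.95 in control replicates 1, 2 and 3, so replicate 3 ran against the others in both genotypes. On the genotype score, however, mutant kainate replicate 3 had 1.59, the highest of the 12 arrays. Mutant kainate replicate 1 had 0.593, the lowest of the mutant arrays. The 2 kainate arrays of replicate 3 are kept as labelled. The averaged kainate difference, the genotype differences and the interaction are also given without them. The treatment was visible in Kcnj2, an inward-rectifier potassium channel gene, which rose by 2.71 ± 0.17 (log2 difference ± SE, kainate minus saline over both genotypes, n = 6 arrays each, limma adjusted p = 0.000162). Kcnj2 was named as a check with earlier results of these data known. The probe sets of Creb1 and Crem past the filter were not lower in mutants (0.0864 for Creb1, adjusted p = 0.405; 0.174 for Crem, adjusted p = 0.247), and the labels do not say whether their probes lie in the deleted part. Of 30 listed marker genes of hippocampal neurons 3 were bright enough to test, of which C1ql3, a gene of dentate granule cells, read log2 7.14 to 8.41 over the arrays, Cpne4 4.31 to 4.69 and Tyro3 4.89 to 5.16. Slc17a6, the vesicular glutamate transporter gene of thalamic and other subcortical neurons, read 7.16 to 8.59 on its brighter probe set and 3.65 to 4.83 on the other.

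Cpeb4 was dim on the kainate arrays and brighter on most saline arrays. All values are log2 GCRMA signals, on which a difference of 1 is a doubling. Its probe set, 134511_at, read 4.32, 4.33 and 4.82 in mutant kainate replicates 1, 2 and 3, against 4.36, 4.79 and 5.71 in mutant saline replicates 1, 2 and 3. In control mice it read 4.36, 4.30 and 4.32 in kainate replicates 1, 2 and 3, against 4.82, 5.37 and 5.33 in saline replicates 1, 2 and 3. The kainate and saline groups overlapped in mutant mice, where 2 of the 3 saline arrays lay below the kainate array of replicate 3, and did not overlap in control mice. Kainate arrays other than mutant replicate 3 sat within a narrow band at 4.30 to 4.36, just above the level of 4 taken as dim.

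The group means of Cpeb4 were 4.49 ± 0.28 in mutant kainate and 4.95 ± 0.69 in mutant saline arrays, and 4.33 ± 0.03 in control kainate and 5.18 ± 0.31 in control saline arrays (SD, n = 3 each). Mutant saline had the widest spread and control kainate the narrowest. The differences, kainate minus saline, were -0.46 ± 0.31 in mutant mice, -0.85 ± 0.31 in control mice and -0.65 ± 0.22 averaged over the genotypes (SE of the fit), the last a 1.57-fold lower signal.

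Cgref1 was brighter, well above the dim level on every array, and its kainate arrays were again mostly the lower ones. Its probe set, 166986_r_at, carries the suffix that Affymetrix gave to sets built with some probe selection rules relaxed. It read 7.08, 7.11 and 7.18 in mutant kainate replicates 1, 2 and 3, against 7.15, 7.77 and 7.68 in mutant saline replicates 1, 2 and 3. In control mice it read 6.96, 6.88 and 6.54 in kainate replicates 1, 2 and 3, against 7.07, 7.84 and 7.76 in saline replicates 1, 2 and 3. The control groups did not overlap, while in mutants the saline array of replicate 1 lay within the kainate range. The lowest value of all was on control kainate replicate 3, 1 of the 2 arrays named above.

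The group means of Cgref1 were 7.12 ± 0.05 in mutant kainate and 7.53 ± 0.33 in mutant saline arrays, and 6.79 ± 0.22 in control kainate and 7.56 ± 0.42 in control saline arrays (SD, n = 3 each). The differences, kainate minus saline, were -0.41 ± 0.22 in mutant mice, -0.77 ± 0.22 in control mice and -0.59 ± 0.16 averaged over the genotypes, the last a 1.51-fold lower signal. Without the 2 arrays that stood apart the averaged difference was -0.54 ± 0.18 for Cgref1 and -0.74 ± 0.26 for Cpeb4. Normalizing the arrays to the same distribution again left the Cgref1 difference in mutant mice at -0.065, and under that scaling mutant kainate replicate 3 read 8.06, the highest of the 12. Without mutant saline replicate 3 the Cpeb4 difference in mutant mice was -0.081.

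**Figure D1:**
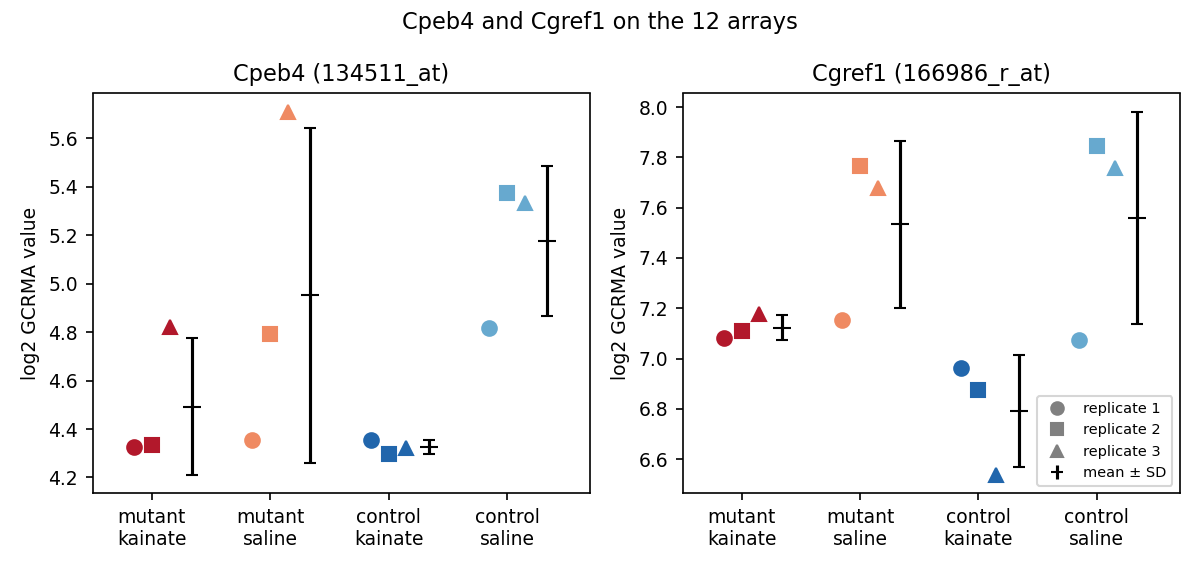
Log2 GCRMA value of the Cpeb4 and the Cgref1 probe set (y axes, each with its own range) on the 12 arrays, by group (x axis). Symbols mark the replicate number and black bars the mean ± SD of 3 arrays. Both kainate groups sit low, and within each genotype saline arrays of replicates 2 and 3 sit higher than that of replicate 1.

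Fewer probe sets had lower differences than these genes in control mice than in mutant mice. Averaged over the genotypes, 179 of 3541 probe sets (5.06%) had a lower difference than Cgref1 and 134 (3.78%) a lower one than Cpeb4, where the median of all was -0.042. In control mice the figures were 32 probe sets (0.904%) for Cgref1 and 23 (0.65%) for Cpeb4. In mutant mice they were 710 (20.1%) and 617 (17.4%), with a median of all at -0.085. Over the whole array limma called 5 probe sets higher and 0 lower for the averaged kainate effect (0.141% of those tested), with 400 (11.3%) at an unadjusted p under 0.05. In control mice alone it called 1 (0.0282%, with 4.46% at an unadjusted p under 0.05) and in mutant mice alone 1 (0.0282%, with 8.47%), or 3 in control mice with the replicate number as a block. Array weights moved the averaged count to 482 probe sets, 313 of them lower. Groups that did not overlap, with kainate below saline, were found in 4.63% of tested probe sets in control mice, both genes among them, and in 8.44% in mutant mice, neither gene among them.

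Within same-numbered arrays the kainate value was the lower one in 6 of 6 pairs for each gene, a pattern shared by 5.14% of tested probe sets. The size differed between replicate 1 and the others. For Cgref1 it was -0.073, -0.66 and -0.50 in replicates 1, 2 and 3 of mutant mice, and -0.11, -0.97 and -1.22 in replicates 1, 2 and 3 of control mice. For Cpeb4 it was -0.031, -0.46 and -0.89 in replicates 1, 2 and 3 of mutant mice, and -0.46, -1.08 and -1.01 in replicates 1, 2 and 3 of control mice. Replicate 1 gave the smallest difference of the 3 for both genes in both genotypes.

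**Figure D2:**
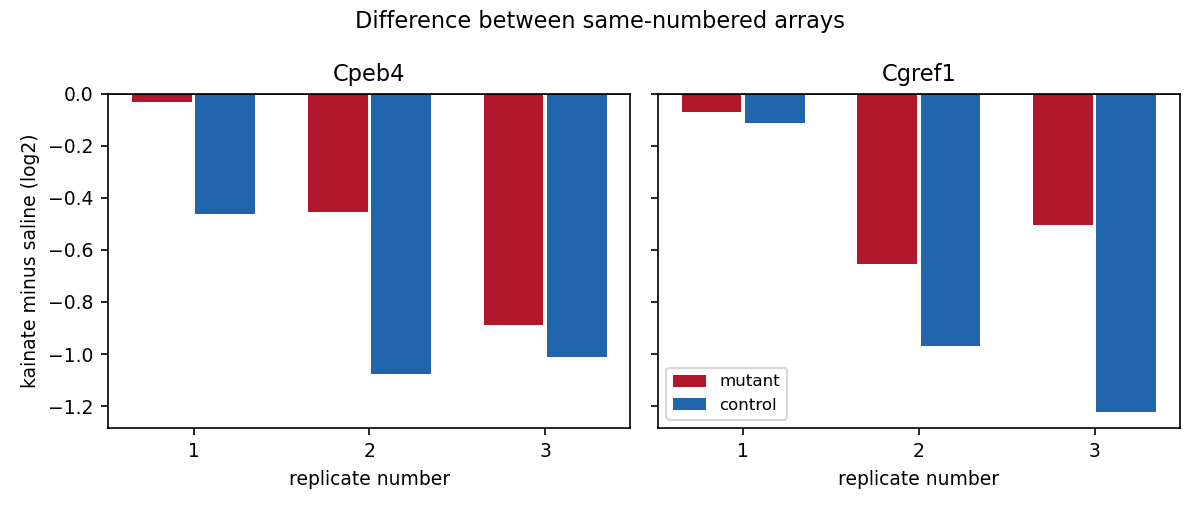
Kainate minus saline (log2, y axis) between arrays of the same replicate number (x axis), for mutant and control mice, in Cpeb4 and Cgref1. All 12 bars lie below 0, and those of replicate 1 are the shortest of each genotype.

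The batches differed mainly on the saline side. On saline arrays Cgref1 averaged 7.76 in replicates 2 and 3 (n = 4 arrays) and 7.11 in replicate 1 (n = 2), a gap of 0.65. On kainate arrays it averaged 6.92 in replicates 2 and 3 and 7.02 in replicate 1, a gap of -0.097. Cpeb4 showed the same picture, with a gap of 0.72 on saline arrays (5.30 in replicates 2 and 3, 4.59 in replicate 1) and of 0.10 on kainate arrays (4.44 and 4.34). Saline arrays of replicate 1 thus read nearly as low as kainate arrays for Cgref1, and for Cpeb4 in mutants, where saline replicate 1 read 4.36. The averaged kainate difference was -0.84 for Cgref1 and -0.86 for Cpeb4 within replicates 2 and 3, against -0.092 and -0.25 within replicate 1.

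Many probe sets shared this pattern. Of all tested, 545 were lower after kainate by at least 0.5 within replicates 2 and 3, and 228 of these (41.8%) were lower by any amount within replicate 1, where 49.1% of all tested probe sets were lower. Of the 545, 151 (27.7%) were higher by at least 0.5 on saline arrays of replicates 2 and 3 than of replicate 1, as both genes were, against 6.64% of all tested; the kainate difference and this gap share the same saline arrays. Within replicate 1 alone 15.4% of probe sets had a lower averaged difference than Cgref1 and 4.32% a lower one than Cpeb4.

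**Figure D3:**
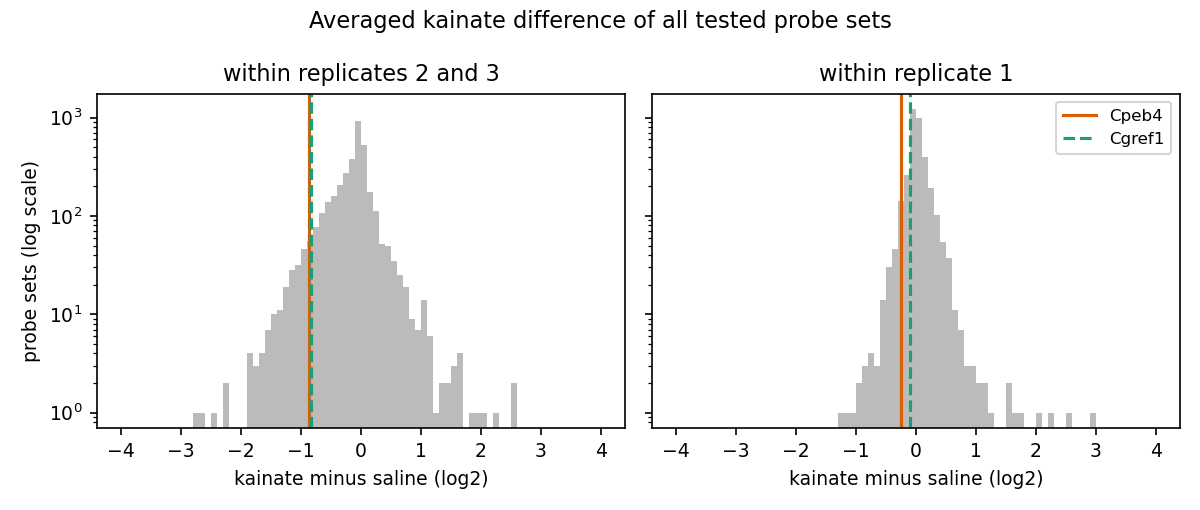
Distribution of the averaged kainate difference (x axis, log2) over all tested probe sets (y axis, number of probe sets on a log scale), within replicates 2 and 3 and within replicate 1. Vertical lines mark Cpeb4 and Cgref1, which lie at -0.86 and -0.84 within replicates 2 and 3 and at -0.25 and -0.092 within replicate 1.

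The actin probe sets read differently on kainate and saline arrays within each batch. The tested astrocyte and choroid plexus genes each leaned to 1 side, with 0 called. The difference between the 3′ and 5′ actin probe sets, which grows as RNA is degraded, was 2.20 to 2.44 on kainate and 1.74 to 1.83 on saline arrays of replicates 2 and 3, and 1.61 to 1.77 on kainate and 1.92 to 2.00 on saline arrays of replicate 1. That of Gapdh was 0.123 to 0.322 on kainate and 0.0106 to 0.119 on saline arrays of replicates 2 and 3. On replicate 1 arrays the Gapdh ranges overlapped, at -0.093 to -0.075 on kainate and -0.147 to -0.080 on saline arrays. Over the 12 arrays the actin difference had a Pearson r of -0.50 with Cgref1 and -0.40 with Cpeb4, values that share batch and treatment. Of 27 listed astrocyte genes 6 were tested and 0 called, all 6 with a positive averaged difference (median 0.21, with 0.34 within replicates 2 and 3 and -0.071 within replicate 1). Their mean log2 level ran from 6.35 to 6.87 in mutant kainate, 6.34 to 6.62 in mutant saline, 6.09 to 7.11 in control kainate and 6.25 to 6.35 in control saline arrays. Of 16 listed choroid plexus and ependymal genes 3 were tested and 0 called, all 3 negative (median -0.82, with -0.997 and -0.314 within the batches in the same order). Their mean level ran from 3.87 to 4.95, 4.35 to 5.91, 4.22 to 5.22 and 4.78 to 5.64 in the groups as ordered above, and Folr1, Clic6 and Tmem212 were on the array and below the filter (log2 1.01 to 3.71 over their probe sets), as were Acsbg1, Gjb6, Hes5, S100b and Sox9 of the astrocyte list. The part of these shifts in the values of Cpeb4 and Cgref1 was not tested.

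The loss of CREB and CREM left no difference in either gene that passed a test. Neither this comparison nor the interaction below was used to choose the genes. Both share their arrays with the kainate values that were used. After kainate, Cgref1 was 0.33 ± 0.22 higher in mutant than in control mice (95% interval -0.17 to 0.84, limma adjusted p = 0.55), with all 3 mutant arrays above all 3 control arrays, as in 2.43% of tested probe sets. Without the 2 arrays that stood apart this difference was 0.18 ± 0.28 (adjusted p = 1), and without control kainate replicate 3 alone 0.20. Cpeb4 was 0.17 ± 0.31 higher after kainate (-0.53 to 0.86, adjusted p = 0.747), and its groups overlapped. This difference was 0.0028 ± 0.40 without the 2 arrays that stood apart (adjusted p = 1), 0.0040 without mutant kainate replicate 3 alone, and -0.032 within replicate 1. After saline the difference was -0.025 ± 0.22 for Cgref1 (-0.53 to 0.48, adjusted p = 0.997) and -0.22 ± 0.31 for Cpeb4 (-0.92 to 0.47, adjusted p = 0.964). Both pairs of saline groups overlapped.

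Averaged over the treatments, mutant minus control was 0.15 ± 0.16 for Cgref1 (95% interval -0.20 to 0.51, adjusted p = 0.57) and -0.028 ± 0.22 for Cpeb4 (-0.52 to 0.46, adjusted p = 0.942). Without the 2 arrays that stood apart it was 0.076 ± 0.18 for Cgref1 (adjusted p = 0.882) and -0.11 ± 0.26 for Cpeb4 (adjusted p = 0.879), and the saline differences keep all their arrays. Of 3541 probe sets limma called 0 (0%) for this comparison, and 677 (19.1%) had an unadjusted p under 0.05. After saline it called 0 as well, with 428 (12.1%) at an unadjusted p under 0.05, and after kainate 0, with 167 (4.72%). Within replicates 2 and 3 the averaged genotype difference was 0.18 for Cgref1 and 0.081 for Cpeb4, against 0.10 and -0.25 within replicate 1.

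Whether the kainate difference depended on the genotype was asked with the interaction term. The kainate difference in mutant mice minus that in control mice was 0.36 ± 0.32 for Cgref1 (95% interval -0.36 to 1.07, limma adjusted p = 0.973) and 0.39 ± 0.44 for Cpeb4 (-0.59 to 1.37, adjusted p = 0.973). Both estimates were positive, which is a smaller drop in mutant mice, and both intervals included 0. Without the 2 arrays that stood apart they were 0.20 ± 0.37 for Cgref1 and 0.23 ± 0.51 for Cpeb4 (adjusted p = 1 each). Leaving out 1 array at a time moved the Cgref1 estimate over 0.17 (without mutant saline replicate 1) to 0.60 (without control saline replicate 1), and that of Cpeb4 over 0.092 (without mutant saline replicate 1) to 0.77 (without mutant saline replicate 3). Limma called 0 of 3541 probe sets (0%) for the interaction, with 31 (0.875%) at an unadjusted p under 0.05. Within replicates 2 and 3 the interaction was 0.52 for Cgref1 and 0.37 for Cpeb4, against 0.039 and 0.43 within replicate 1.

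**Figure D4:**
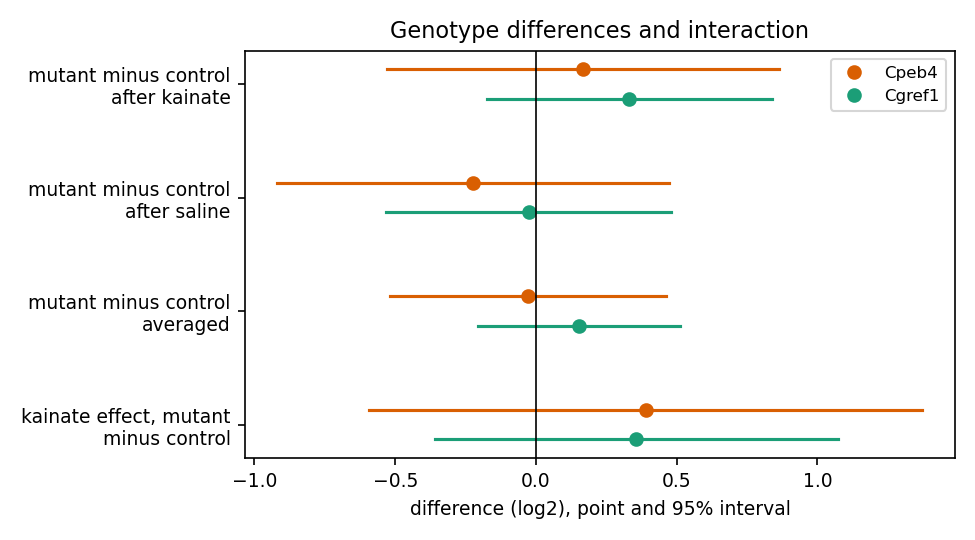
Genotype differences and the interaction for Cpeb4 and Cgref1 (x axis, log2 difference with its 95% interval from the limma fit; y axis, the comparison). All 8 intervals include 0.

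Few genes that act beside Cpeb4 in control of the poly(A) tail could be tested. Of 45 such genes 13 had a probe set on this array and 4 of these passed the filter, with 0 called higher and 0 lower after kainate (4 of 4 negative, median -0.31, against -0.042 over all probe sets). The median was -0.168 in control mice (1 positive, 3 negative) and -0.479 in mutant mice (4 negative). Pum2, an RNA-binding repressor of translation, had -0.56 ± 0.19 averaged over the genotypes (adjusted p = 0.349), with -0.83 within replicates 2 and 3 and -0.024 within replicate 1. Papolg, a poly(A) polymerase gene, had -0.78 ± 0.38 (adjusted p = 0.49), with -1.14 and -0.059 within the batches in the same order. Another probe set of Papolg lay below the filter, at log2 2.42 to 2.59 over the arrays. Eif4e, the cap-binding translation factor, had -0.060 ± 0.068 (adjusted p = 0.788), and Cpsf3, the endonuclease of 3′ end cleavage, -0.033 ± 0.050 (adjusted p = 0.847). For Pum2 and Papolg the difference lay mainly within replicates 2 and 3, while those of Eif4e and Cpsf3 were no larger than their errors. Cpeb1, Cpeb2 and Cpeb3 were not analysed here.

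Among genes of EF-hand calcium-binding proteins, the family trait of Cgref1, 60 were listed, 20 had a probe set and 11 were tested, with 0 called higher and 0 lower (4 positive and 7 negative, median -0.075). The largest averaged differences were those of Pvalb, the interneuron calcium buffer (0.87 ± 0.48, adjusted p = 0.539), Caln1, a neuronal calmodulin relative (-0.52 ± 0.26, adjusted p = 0.505), Sdf4, which encodes a Golgi calcium-binding protein (-0.35 ± 0.11, adjusted p = 0.349), and Micu3, a regulator of mitochondrial calcium uptake (-0.34 ± 0.19, adjusted p = 0.561). Sdf4 had -0.51 within replicates 2 and 3 and -0.024 within replicate 1, and Micu3 had -0.53 and 0.048 in the same order. On the averaged genotype difference 0 of the 11 were called, nor were any of the 4 poly(A) tail genes.

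The early response genes that passed the test were higher after kainate. Of 67 listed activity-induced genes 10 were tested by their brightest probe set, with 4 called higher, 0 lower and 6 not called (9 positive and 1 negative, median difference 1.51). By probe set 5 of the list were called, which are all of the 5 called among 3541 (0.141%). The list was drawn up with earlier results of these data known, so its share of the calls carries no separate support. Of those not called, Egr4 (1.84, adjusted p = 0.158), Gm13889 (1.38, adjusted p = 0.0934) and Rgs4 (0.81, adjusted p = 0.158) had the larger differences. The others were Jun (0.039, adjusted p = 0.777), Mcl1 (0.15, adjusted p = 0.854) and Crem (-0.063, adjusted p = 0.737). The 4 called were Kcnj2, the zinc-finger factor gene Egr3 (1.64 ± 0.19, adjusted p = 0.00704), Sik1, a salt-inducible kinase gene (1.75 ± 0.19, adjusted p = 0.00704), and Apold1, an endothelial early response gene (2.17 ± 0.26, adjusted p = 0.0089). A second, dim probe set of Gm13889 was called as well. Unlike those of Cpeb4 and Cgref1, the differences of these 4 genes on their brightest probe sets were large in both batches. Within replicates 2 and 3 they were 2.58 for Kcnj2, 1.68 for Egr3, 1.84 for Sik1 and 2.01 for Apold1, and within replicate 1 they were 2.95 for Kcnj2, 1.55 for Egr3, 1.57 for Sik1 and 2.501 for Apold1. A second, dimmer probe set of Egr3 was not called (1.20 ± 0.44, adjusted p = 0.362). It had 0.67 within replicates 2 and 3 and 2.26 within replicate 1. The 4 genes were picked by a test over both batches, which favours differences found in both. Whether the batch dependence differs between the genes was not tested.

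Across the 12 arrays Cpeb4 and Cgref1 had a Pearson r of 0.81 with each other, and of 0.79 after each batch was centred on its own mean. Within a treatment the value was 0.68 over the 6 saline and 0.48 over the 6 kainate arrays. The arrays share treatment and batch, so these values describe a common profile and carry no p. Both genes were chosen for a lower averaged kainate value, so part of the likeness over the 12 arrays follows from that choice.

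The genes whose profile was most like that of Cgref1 over the 12 arrays were 1700034J05Rik (r = 0.97), Rep15, a Rab15 effector gene (0.94), Fam227a (0.94), Tusc3, an oligosaccharyltransferase subunit gene (0.93), and Dnmt3a, a DNA methyltransferase gene (0.92). The same 5 came out on top with the batches centred. Like Cgref1, all of them but Tusc3 were read by a probe set with the suffix _r_at. Tusc3 read 3.345 to 4.25 over the arrays and reached the dim level of 4 only on saline arrays. It thus passed the filter only through the treatment in which it was high. The averaged kainate differences of the 5 genes ran from -0.97 for Fam227a to -0.33 for Tusc3. Within replicates 2 and 3 they were -1.02 for 1700034J05Rik, -1.22 for Rep15, -1.42 for Fam227a, -0.55 for Tusc3 and -0.62 for Dnmt3a. Within replicate 1 they were 0.035, 0.0087, -0.050, 0.11 and -0.13 in the same order. These genes were picked for their likeness to Cgref1, itself chosen for its kainate difference on the same arrays. Lower kainate values and a shared batch pattern follow from that choice and carry no test.

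For Cpeb4 the most similar were Zfp551, a zinc-finger gene (r = 0.93), Ccdc185 (0.90), Zfp362, another zinc-finger gene (0.89), Hectd2, a HECT-domain ubiquitin ligase gene (0.89), and the noncoding RNA gene Snhg11 (0.88). With the batches centred Zfp551 (0.92) and Ccdc185 (0.88) stayed among the top 5, joined by Brix1 (0.94), Slc35a5 (0.91) and Zfp956 (0.90). Zfp551 and Ccdc185 were lower after kainate in both batches, at -0.85 and -0.56 within replicates 2 and 3 and at -0.25 each within replicate 1. Hectd2 had a difference of -1.26 within replicates 2 and 3 and of 0.025 within replicate 1. In the same order Zfp362 had -0.26 and 0.088, and Snhg11 -0.49 and -0.072. Of those that joined with the batches centred, Brix1 had -0.34 and -0.15, Slc35a5 -1.23 and 0.0094, and Zfp956 -0.48 and -0.078. Zfp551 read 2.92 to 4.46 over the arrays, partly below the dim level, which it reached only on saline arrays. It passed the filter only through them. As for Cgref1, lower kainate values and batch patterns shared with Cpeb4 follow from the choice by likeness.

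**Figure D5:**
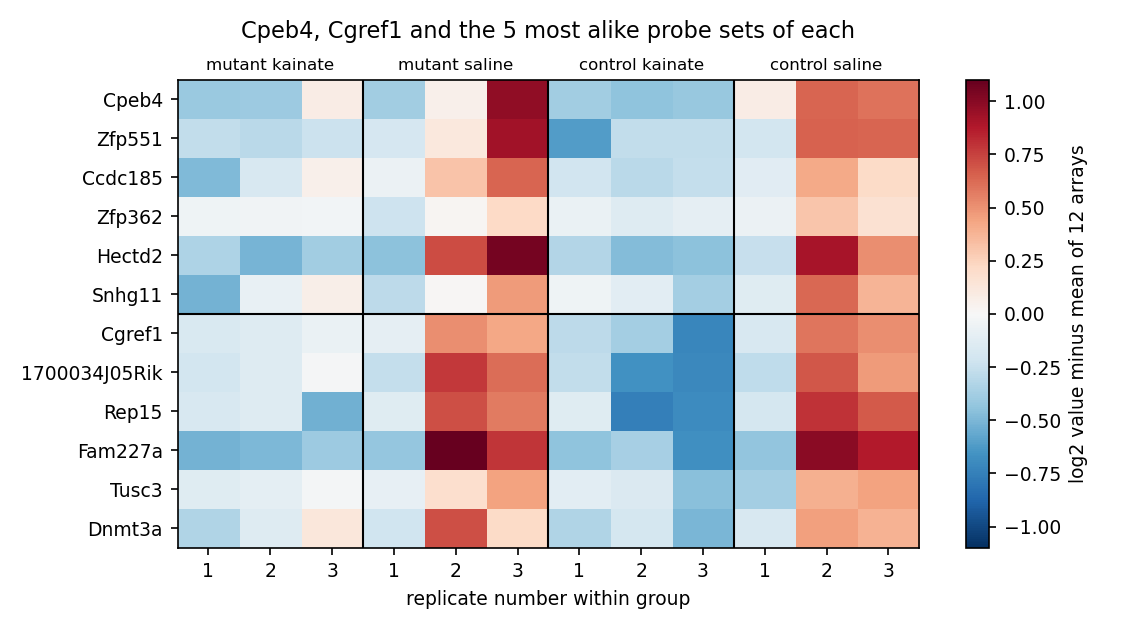
Values of Cpeb4, Cgref1 and the 5 probe sets most like each over the 12 arrays (rows), as log2 value minus the mean of the 12 arrays (colour), by group and replicate (columns). Control saline replicates 2 and 3 and mutant saline replicate 3 are the columns with high values of both genes, while in mutant saline replicate 2 Cgref1 is high and Cpeb4 lies near its mean.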

How the data were processed

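The deposited table holds log2 values per probe set, which the authors made by GCRMA in R 2.4.1, per the submitters' processing notes, on 12 arrays (array C of the murine U74 set). The GCRMA version is not given in the sources used here. Medians of the arrays were 3.26 to 3.41, and 3 arrays per group limit the precision. Control probe sets (66) were left out, and 3541 of the 11868 others with log2 4 or more on at least 3 arrays were tested with limma 3.58.1 in R 4.3.3 (1 mean per group, no block, 8 residual degrees of freedom), with Benjamini-Hochberg adjustment over all of them and a threshold of 0.05. The fit was tested on simulated data. Names came from the platform annotation. The labels call the arrays biological replicates, so p-values measure the spread between pools. The genes, lists and tests were chosen with earlier results of these data known. Named genes are both members, up to 4 tested members of the poly(A) tail and EF-hand lists by averaged kainate difference, and tested early response genes. The 5 most correlated genes of each member are named as well. The 11 gene lists (351 entries, all found in the RefSeq gene table) were counted by the brightest probe set of a gene. The lists not described in the results had 0 genes called for the averaged kainate effect, with medians of -0.093 for oligodendrocytes (3 genes tested), -0.025 for microglia (3), 0.22 for endothelium, pericytes and blood (1), -0.12 for interneurons (5), -0.015 for hippocampal neurons (3) and -0.0079 for neighbouring regions (3).

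Replicate numbers are shared between groups. Deviations from the group mean of same-numbered arrays correlated at 0.383 to 0.627 for kainate in control mice, -0.0779 to 0.479 for kainate in mutant mice, 0.47 to 0.855 for genotype after saline and 0.19 to 0.578 for genotype after kainate, so the numbers pair the arrays by the criterion of 0.1 in all of these but kainate in mutant mice. Alternatives were another normalization, other filters, blocks, array weights, a variance trend and leaving out arrays.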

Additional observations from a re-analysis of the deposited data

How the results depend on the processing

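The averaged kainate differences of Cpeb4 and Cgref1 kept their negative sign in all 23 alternatives, over -0.92 to -0.25 for Cpeb4 and -0.84 to -0.092 for Cgref1, and moved by more than the spread between replicates only within replicate 1 (-0.247 and -0.0921). Within replicate 1 the Cgref1 difference was -0.112 in control and -0.0728 in mutant mice, that of Cpeb4 in mutant mice -0.0313, and the Cgref1 interaction 0.0387. Within replicates 2 and 3 Cgref1 had -1.10 in control mice. Quantile normalization gave -0.0655 for Cgref1 in mutant mice, and array weights -0.886 for Cpeb4 in mutant mice. Leaving out 1 array gave -0.76 to -0.0809 for Cpeb4 in mutant mice, the last without mutant saline replicate 3. No genotype difference or interaction of either gene passed the threshold in any alternative with a test (adjusted p of 0.324 to 1), the replicate block included, which left the Cpeb4 interaction at 0.391 ± 0.338 and changed no call of either gene. The sign turned under quantile normalization for Cpeb4 averaged over treatment (0.0161) and Cgref1 after saline (0.0554). Leaving out 1 array gave -0.218 to 0.121 for Cpeb4 averaged over treatment, -0.602 to 0.0747 for Cpeb4 after saline and -0.268 to 0.165 for Cgref1 after saline. The cause was not tested.

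Counts of called probe sets, averaged kainate effect first, then kainate in control mice, kainate in mutant mice, genotype averaged, after saline and after kainate, were 5, 1, 1, 0, 0 and 0 as reported. They were 9, 2, 4, 0, 0 and 0 with quantile normalization, 9, 5, 3, 5, 1 and 0 without both arrays that stood apart, 20, 7, 5, 29, 6 and 4 without these arrays under a batch block, and 482, 51, 26, 6, 2 and 4 with array weights. Kainate in control mice gave 3 with the stricter filter, 6 with only the arrays compared, 3 with the replicate block, 2 with the batch block and 4 with a variance trend. Kainate in mutant mice gave 0 with no filter and with only the arrays compared, and 2 with either block. Leaving out 1 array gave 5 to 56 for the averaged kainate effect, 1 to 4 for kainate in control mice, 0 to 67 for kainate in mutant mice, 0 to 2 for genotype averaged and 0 to 15 for genotype after kainate, the highest without mutant kainate replicate 1 except for genotype averaged, which was highest without control kainate replicate 3. The interaction gave 0 throughout. Cpeb4 lies near the dim level, which limits what its differences can show.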
